A study of Mus musculus with 12 samples.

Results

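The stefin A genes of mouse chromosome 16 encode small inhibitors of cysteine proteases, and 7 of them were examined in fetal liver: Stfa1, Stfa2, Stfa2l1, Stfa3, BC100530, BC117090 and Gm5483. The members were chosen by gene symbol, with the authors' comparison of the maternal diets already known, and all 7 were found among the 30743 rows of the deposited table. RNA came from entire livers of male C57BL/6J fetuses at 15 ± 0.5 dpc, 6 from dams given a high-fat diet (HFD, 60 kcal% fat) and 6 from dams given a control diet (13.5 kcal% fat), for 12 to 14 weeks in each case. PolyA RNA was made into TruSeq v2 libraries, a kit that does not mark the strand, and sequenced by Illumina chemistry. For each gene symbol the table gives 1 average log2 CPM (read counts scaled to a common library size) over all 12 livers of both diets, which is the authors' mean. Every level below is that mean, so it carries no SD, it cannot be divided by diet, and no difference between genes could be set against the spread between livers. Whether a level was shared by all livers or came from a few of them cannot be seen either. The other columns hold the authors' own comparison of the diets and were not used, so the diets were not compared here and no test was run.

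Stefins are cytosolic proteins of the cystatin superfamily. They bind tightly and reversibly to papain-like cysteine proteases such as the cathepsins, the main proteases of the lysosome, and so guard the cytosol against proteases that escape from it. Humans have a single stefin A gene, whereas the mouse gene has multiplied into a cluster of close copies that are known from granulocytes and other myeloid cells and from skin. The fetal liver is the main blood-forming organ of the mid-gestation embryo, so its RNA is a mixture from hepatocytes, red cell precursors, granulocytes, macrophages and other cells. In such bulk RNA, fewer cells of a type and less RNA per cell cannot be told apart.

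The copies are so alike that short reads cannot always be given to 1 of them. The last 150 coding bases of each member are shown because they make this likeness visible. They are written 5′ to 3′ as annotated in GENCODE M21 (GRCm38, the assembly that UCSC names mm10), without the stop codon, and each stretch is joined from the last coding parts of 2 exons. Capitals mark bases that differ from Stfa1. The first 3 sequences form 1 group of near copies, the next is Stfa3, and the following pair is the second group of near copies. Gm5483, which stands last among the members, has its nearest copy in 2010005H15Rik, a neighbour that is no member. For 2010005H15Rik the capitals mark differences from Gm5483.
Stfa1: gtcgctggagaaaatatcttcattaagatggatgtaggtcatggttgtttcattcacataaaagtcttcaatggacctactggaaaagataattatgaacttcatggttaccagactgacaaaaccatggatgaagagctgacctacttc
BC100530: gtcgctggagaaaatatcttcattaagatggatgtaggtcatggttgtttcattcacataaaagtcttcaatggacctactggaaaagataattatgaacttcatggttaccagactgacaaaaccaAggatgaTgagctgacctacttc
BC117090: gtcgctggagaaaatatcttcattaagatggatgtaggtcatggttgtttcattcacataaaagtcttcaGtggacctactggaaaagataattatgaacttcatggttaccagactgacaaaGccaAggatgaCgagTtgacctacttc
Stfa3: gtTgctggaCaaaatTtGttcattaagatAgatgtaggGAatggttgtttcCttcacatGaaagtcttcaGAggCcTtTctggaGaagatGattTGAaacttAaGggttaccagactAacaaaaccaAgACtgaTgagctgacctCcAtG
Stfa2l1: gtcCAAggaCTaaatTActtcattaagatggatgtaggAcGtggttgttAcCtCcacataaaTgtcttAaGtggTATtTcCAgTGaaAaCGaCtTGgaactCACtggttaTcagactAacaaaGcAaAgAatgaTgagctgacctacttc
Stfa2: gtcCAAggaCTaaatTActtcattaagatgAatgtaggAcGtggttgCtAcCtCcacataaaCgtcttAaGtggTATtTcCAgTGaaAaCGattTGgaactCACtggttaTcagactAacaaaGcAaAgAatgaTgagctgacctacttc
Gm5483: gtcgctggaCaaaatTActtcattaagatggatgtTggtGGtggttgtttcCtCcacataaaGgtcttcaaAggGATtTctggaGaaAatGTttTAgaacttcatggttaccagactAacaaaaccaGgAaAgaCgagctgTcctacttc
2010005H15Rik: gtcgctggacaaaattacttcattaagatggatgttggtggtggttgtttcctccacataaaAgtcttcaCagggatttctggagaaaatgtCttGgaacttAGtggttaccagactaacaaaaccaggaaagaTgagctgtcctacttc
In these 150 bases BC100530 differed from Stfa1 at 2 positions and BC117090 differed at 5. Gm5483 differed from Stfa1 at 26 positions, Stfa3 at 29, Stfa2l1 at 39 and Stfa2 at 40. Stfa2 and Stfa2l1 differed from each other at 4 positions, and 2010005H15Rik differed from Gm5483 at 7.

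All 7 members were listed well above most rows of the table. Their average log2 CPM ran from 3.69 to 8.21, whereas the median over all rows was -2.17 and 11091 rows sat at the lowest value of the table, -2.71, which corresponds to 0.152 CPM. Stfa1 was the highest member at log2 8.21, or 296 CPM, with 448 rows above it. BC100530 followed at log2 7.63, or 198 CPM, with 754 rows above it. These 2 genes together held 66.9% of the summed level of the 7 members, 739.6 CPM. Gm5483 was listed at log2 6.54 (93.4 CPM), Stfa3 at 5.83 (57.0 CPM) and Stfa2l1 at 5.58 (48.0 CPM). These 3 genes form the middle of the order, with 1733 to 2893 rows above them. Stfa2 was listed at log2 5.07 (33.7 CPM) and BC117090, the lowest member, at 3.69 (12.9 CPM). Even BC117090 had only 5111 rows above it, which put it at the 83.4th percentile of all rows, and Stfa1 was at the 98.5th. Among the 19652 rows above the lowest value alone, BC117090 was at the 74.0th percentile and Stfa1 at the 97.7th.

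**Figure D1:**
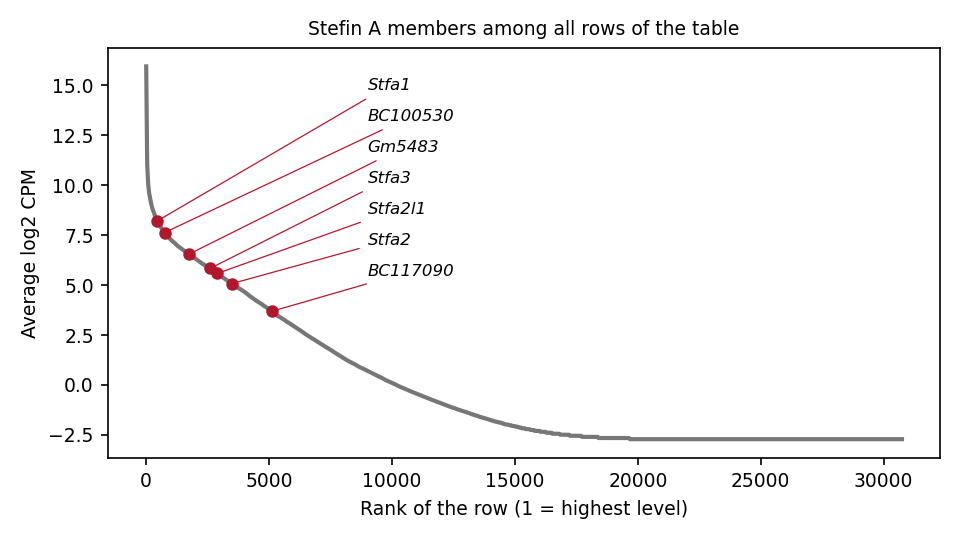
All 30743 rows of the table ranked by average log2 CPM, the authors' mean over the 12 livers (x axis, rank with 1 as the highest; y axis, log2 CPM). The red points are the 7 stefin A members, which lie between log2 3.69 and 8.21 on the falling part of the curve, above the flat stretch of rows at -2.71.

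Stefin transcripts are short, so levels between genes were compared per length. Per kb of the longest protein-coding transcript, Stfa1 (617 bases) was at 480 CPM per kb and BC100530 (619 bases) at 321. Gm5483 (414 bases) followed at 226 CPM per kb, Stfa3 (412 bases) at 138 and Stfa2l1 (419 bases) at 115. Stfa2 (471 bases) was at 71.5 CPM per kb and BC117090 (387 bases) at 33.3. The order of the 7 members was the same on this scale as in CPM, and it was the same again per kb of coding sequence and after the value of rows at the lowest level was subtracted. The median over the 22880 rows matched to a GENCODE gene was 0.266 CPM per kb, and the members lay between the 92.2nd and the 99.6th percentile of those rows. The ratio of the highest to the lowest member was 14.4 per kb of transcript and 22.7 per kb of coding sequence, against 23.0 in CPM. Neighbours in the order were closer: Stfa1 was 1.50 times BC100530 per kb of transcript. With no value for a single liver, it cannot be said which neighbours in this order differ beyond their spread.

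**Figure D2:**
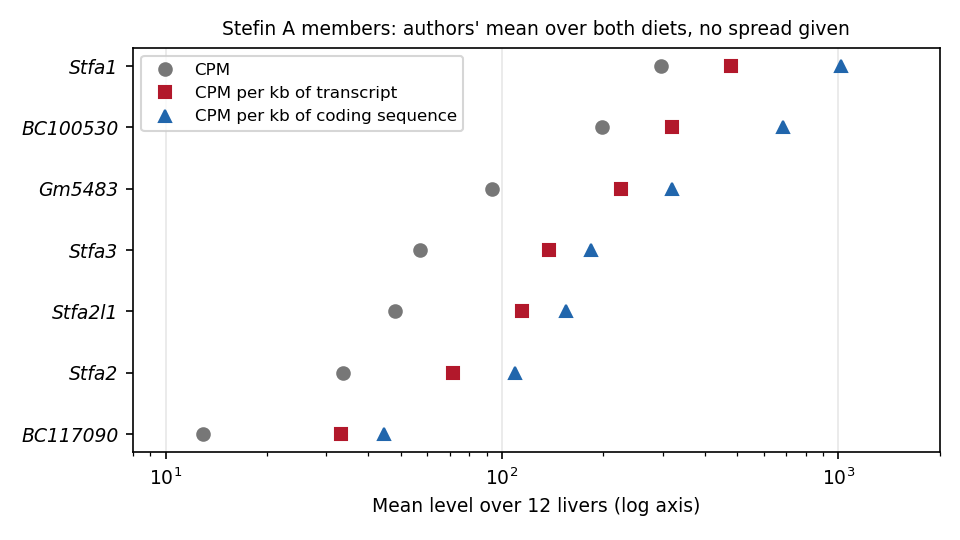
Level of each stefin A member as the authors' mean over 12 livers of both diets, in CPM (grey circles), CPM per kb of transcript (red squares) and CPM per kb of coding sequence (blue triangles), on a log axis with no error bars because no spread is given. On every scale Stfa1 is highest (296 CPM) and BC117090 is lowest (12.9 CPM).

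The coding sequences fell into the groups that the printed stretches show. Over the 21 pairs of members, identity in aligned columns without gaps ran from 80.4% to 97.9%, with a median of 84.1%. The proteins translated from them, 96 to 103 residues long, were 61.9% to 95.1% identical, with a median of 68.8%. Stfa1, BC100530 and BC117090 were 96.5% to 97.9% identical in coding bases, and together they held 507.6 CPM, or 68.6% of the summed level. Stfa2 and Stfa2l1 were 96.4% identical and held 81.7 CPM, or 11.0%. Gm5483 was 96.9% identical to 2010005H15Rik, which was listed at the lowest value, so nearly all of their 93.5 CPM stood under Gm5483. Stfa3 had no partner at 95% or more and held 57.0 CPM, or 7.70%. Near copies differed in level to unequal degrees. Stfa1 was listed 1.50 times as high as BC100530 per kb of transcript, and Stfa2l1 was 1.60 times as high as Stfa2. BC100530 was 9.63 times as high as BC117090 per kb of transcript, and 15.2 times as high per kb of coding sequence. Each of these ratios rests on single values between which reads may be shared.

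**Figure D3:**
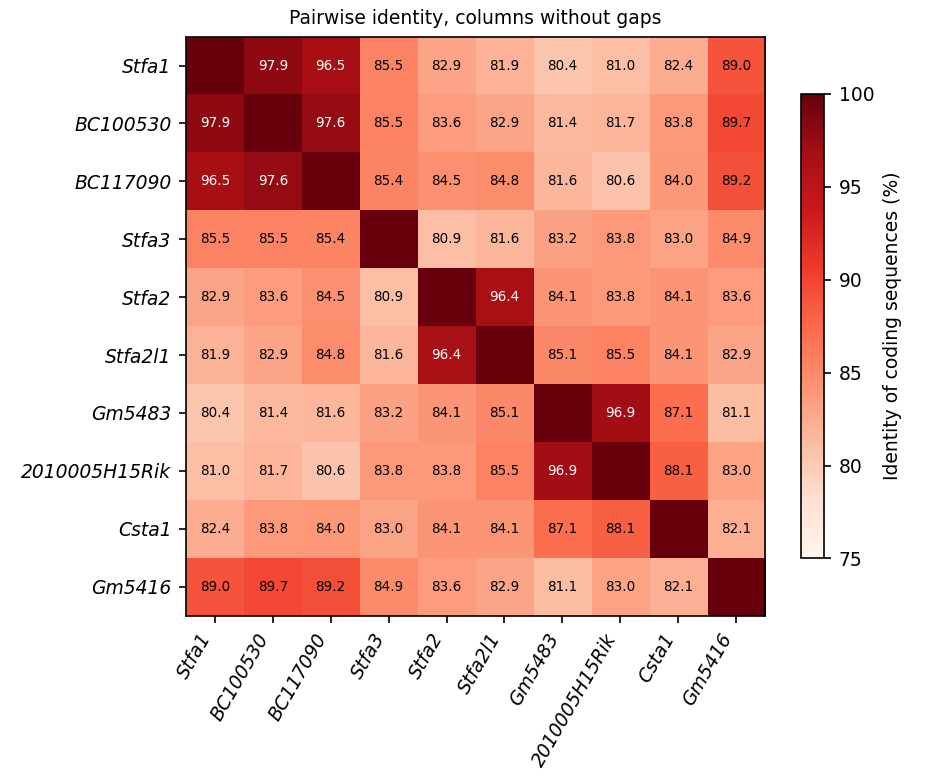
Identity of coding sequences in percent, over aligned columns without gaps, for the 7 members and 3 stefin genes of the same locus that are no members (2010005H15Rik, Csta1 and Gm5416). The dark blocks are Stfa1 with BC100530 and BC117090 (96.5% to 97.9%), Stfa2 with Stfa2l1 (96.4%) and Gm5483 with 2010005H15Rik (96.9%).

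How far this likeness could move reads between genes was measured as the share of all 50-base windows of a transcript found unchanged in a transcript of another gene, on either strand. For Stfa3 this share was 0%, so every window was its own. It was 15.9% for Stfa2 and 24.6% for Stfa2l1, mostly through the 62 windows that these 2 genes have in common. It was 26.9% for Stfa1, 33.7% for BC117090, 35.6% for Gm5483 and 48.9% for BC100530. Stfa1 and BC100530 had 131 windows in common, of 568 and 570, and all 130 shared windows of Gm5483 were those of 2010005H15Rik. A further 98 windows of BC100530 occur in Gm15845, an antisense gene that overlaps its 5′ end and has no row in the table. The libraries do not mark the strand, so reads of BC100530 and Gm15845 cannot be told apart where they overlap. In windows of 100 bases the share dropped to 22.3% for BC100530, 13.5% for BC117090, 11.1% for Gm5483 and 5.60% for Stfa1, and it was 0% for Stfa2, Stfa2l1 and Stfa3. The read length and the treatment of reads that match several places are not given in the sources used here. The single values of all members other than Stfa3 are therefore uncertain. That of Stfa3 is not cleared either, because only unchanged windows of 50 and 100 bases in annotated transcripts were counted. Shorter reads, reads placed with mismatches and matches elsewhere in the genome were not examined. The summed levels of the near copies would be safer only if shared reads were divided among those copies, which is not known. Reads dropped, counted at several copies or shared with Gm15845 would move the sums too.

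The members share their structure and their place. Each has 3 exons in its longest protein-coding transcript, and all lie within 298.582 kb of chromosome 16 (GRCm38), from base 36156811 to base 36455392. On the plus strand lie Stfa2l1 (chr16:36156811-36161953), Gm5483 (chr16:36184212-36188111) and Stfa1 (chr16:36276951-36285373). On the minus strand lie BC117090 (chr16:36321665-36334332), BC100530 (chr16:36359382-36367748), Stfa2 (chr16:36403992-36408457) and Stfa3 (chr16:36450537-36455392). The 3 plus-strand members thus come first along the chromosome, and the 4 minus-strand members follow. The 2 highest members, Stfa1 and BC100530, are in the middle of the cluster, but BC117090, the lowest, lies between them. An annotated small nuclear RNA gene lies 59 to 106 bases past the 3′ end of 6 members, always on the opposite strand and 104 to 107 bases long. Stfa3 is the exception among the members, with the nearest such gene 11790 bases away. This trait does not set the members apart, because 2010005H15Rik and Gm5416, which are no members, also have such a gene. It lies 65 and 133 bases past their 3′ ends, again on the opposite strand.

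High levels were not shared by all genes of the interval. With 100 kb added at each end, the interval holds 6 other protein-coding genes. Gm5416, a stefin gene within the cluster, was listed at log2 1.13 (2.19 CPM, or 7.44 CPM per kb of transcript), and Gm5483 was 30.3 times as high per kb. The stefin gene 2010005H15Rik was at the lowest value, and Csta1, listed under its older symbol Csta, was at log2 -2.49. Among the flanking genes of other families, Fam162a was listed at log2 6.80 (111 CPM), Ccdc58 at -1.74 and Casr, the calcium-sensing receptor, at the lowest value. The stefin genes of the locus thus divided into 7 members at 12.9 CPM or more and 3 others at 2.19 CPM or less. The members were chosen with values of these data known, so this division is a description. A low listing cannot be read as absence, because Ppia, a gene that every cell uses, was listed at log2 -2.60. Ppia was the lowest of 16 such genes, of which 3 were under 1 CPM, and their median was log2 7.54.

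**Figure D4:**
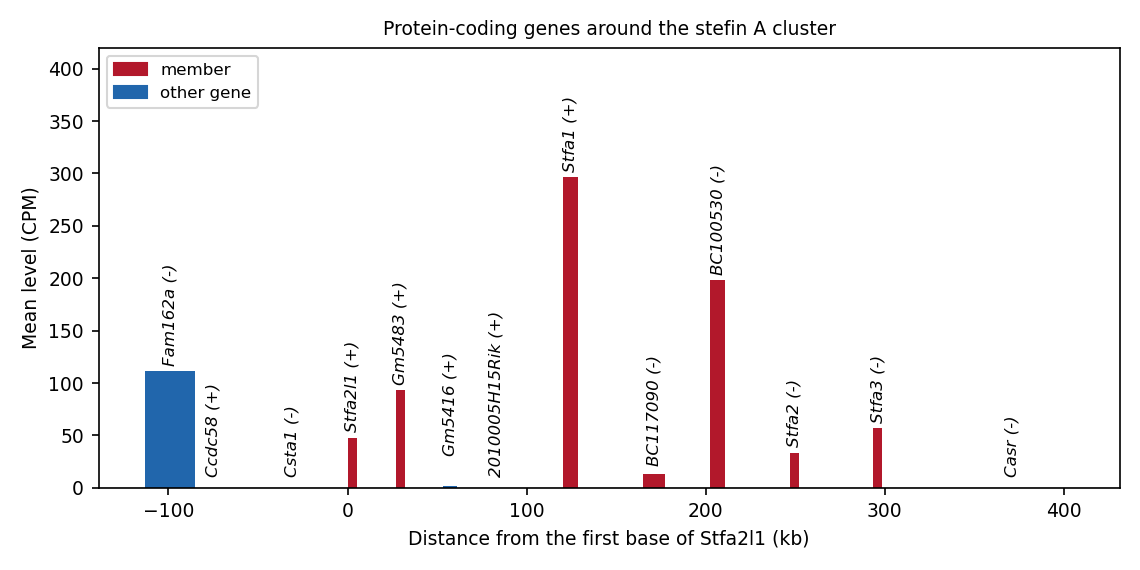
Protein-coding genes of the stefin A locus with 100 kb at each end, by distance from the first base of Stfa2l1 (x axis, kb; strand in brackets) and mean level over 12 livers (y axis, CPM). Bars span each gene, with a minimum width so that short genes stay visible; red bars are the 7 members, and the blue bars are other genes, of which Fam162a at 111 CPM is the only one above 2.19 CPM.

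The starts of the members were also alike. RefSeq promoter windows on GRCm38.p6, 250 bases before to 50 bases after the start, were given for 6 of the 7 members and not for BC117090. Over the 15 pairs these windows were 68.5% to 90.5% identical with gaps counted, with a median of 75.1%. The 100 bases before each RefSeq start are printed 5′ to 3′ on the strand of the gene, because they show how much the 6 members have in common ahead of their transcripts. Capitals mark the runs of at least 10 bases that all 6 stretches hold, of which there are 2, AGAGGAGGAG and ACCTTTAAAACC.
Stfa1: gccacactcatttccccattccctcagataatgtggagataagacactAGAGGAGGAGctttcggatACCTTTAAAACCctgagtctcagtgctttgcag
BC100530: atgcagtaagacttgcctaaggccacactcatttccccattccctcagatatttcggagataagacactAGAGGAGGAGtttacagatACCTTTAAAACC
Gm5483: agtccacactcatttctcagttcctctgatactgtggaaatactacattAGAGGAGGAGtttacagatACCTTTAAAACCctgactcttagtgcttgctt
Stfa3: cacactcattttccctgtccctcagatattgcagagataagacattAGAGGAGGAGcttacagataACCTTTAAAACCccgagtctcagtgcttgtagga
Stfa2l1: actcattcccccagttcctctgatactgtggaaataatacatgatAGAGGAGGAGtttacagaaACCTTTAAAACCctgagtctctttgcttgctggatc
Stfa2: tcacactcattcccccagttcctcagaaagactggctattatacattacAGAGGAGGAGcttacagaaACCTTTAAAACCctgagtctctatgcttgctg
The positions are chr16:36277048-36277147 (plus strand) for Stfa1, chr16:36367571-36367670 (minus) for BC100530, chr16:36184112-36184211 (plus) for Gm5483 and chr16:36455393-36455492 (minus) for Stfa3. For Stfa2l1 the stretch is chr16:36156711-36156810 (plus) and for Stfa2 chr16:36408364-36408463 (minus). The RefSeq starts of Stfa1, BC100530 and Stfa2 lie inside the GENCODE genes, so 100, 100 and 94 bases of these 3 stretches fall within the bounds that GENCODE gives the genes. In each stretch AGAGGAGGAG comes first and ACCTTTAAAACC follows nearer to the start. Both runs were picked because all 6 members hold them, so their presence there is no finding. Searched on both strands, AGAGGAGGAG occurs in 337 of all 32851 RefSeq promoter windows (1.03%) and ACCTTTAAAACC in 11, the 6 members included (0.0335%). GAGGAA, the core to which the myeloid factor PU.1 binds, occurs in the windows of 6 of 6 members and in 28.3% of all windows. The palindrome TTGCGCAA, bound by C/EBP factors, was in 0 of 6 members and 0.183% of all windows, and TATAAA was in 0 of 6 and 13.6%. A match describes the sequence and no more. The window of 2010005H15Rik was 48.3% to 50.7% identical to those of the 6 members. Its RefSeq start belongs to a noncoding exon far from its coding exons, so the bases next to those exons were not compared.

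The stefin A copies are known from myeloid cells among others, and the marker genes of several cell types were read from the same table. Of the late neutrophil genes, 12 of 13 had a row, with a summed level of 1311 CPM against 739.6 CPM for the 7 stefin A members. S100a8, which encodes a subunit of the calprotectin of neutrophils, was highest at log2 8.90, and Ngp and Ltf, both of neutrophil granules, were at 8.17 and 7.75. Per kb of transcript, Stfa1 was 0.488 times S100a8, and S100a8 was the only gene of this list above the highest member. The partner of S100a8 in calprotectin, S100a9, was listed at log2 -2.60, the lowest of the list. The 6 early granulocyte genes summed to 1010 CPM, led by the granule enzymes Mpo (log2 9.57), Elane (6.80) and Ctsg (6.34), with Ms4a3 lowest at -0.18. The 6 macrophage genes all had a row and summed to 317 CPM. The receptor Marco (log2 7.70), the complement gene C1qa (6.37) and the Kupffer cell lectin Clec4f (4.64) led, and Emr1, which encodes F4/80, was at the lowest value. In all, 3 of the 6 macrophage genes were under 1 CPM. The same held for 2 of the 12 late neutrophil genes with a row and 1 of the 6 early granulocyte genes. Some markers of granulocytes and some of macrophages were thus listed high, while the late neutrophil and macrophage lists each had a defining gene at or near the lowest value. Which of these cells the stefin A reads came from was not tested.

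Skin is the other tissue known for stefin A, and its markers were nearly all low. The 10 keratinocyte genes, all with a row, summed to 7.31 CPM, and 9 were under 1 CPM. Krt10 was highest at log2 1.89, followed by Krt5 at -0.45 and Krt15 at -0.79, while Flg and Trp63 were at the lowest value. Each of the 10 was below BC117090 per kb of transcript. The labelled tissue was checked against hepatocyte genes, of which Alb (log2 15.95), Afp (15.73) and Apoa1 (12.32) were very high and Hnf4a was at the lowest value. Of the erythroid genes, Hbb-b1 (log2 14.60) and Epor (7.81) were high and Alas2 was lowest at -0.51. Hnf4a, used by hepatocytes, and Alas2, used by red cell precursors, were thus listed very low in an organ rich in both, which limits what any low listing in this table can show.

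**Figure D5:**
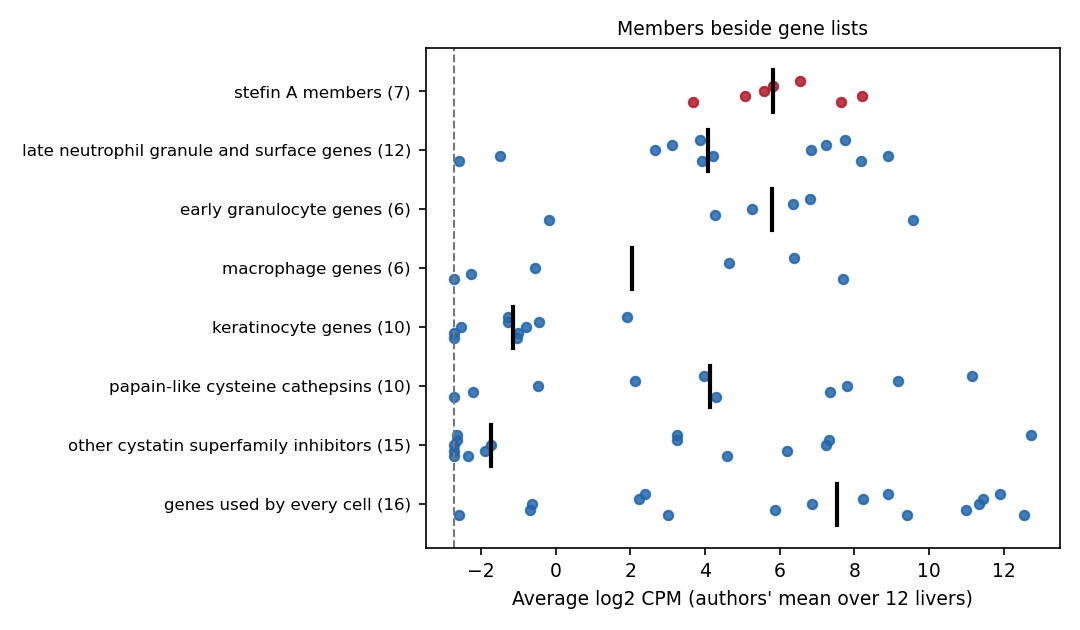
Average log2 CPM over 12 livers (x axis) of the 7 stefin A members (red) and of the genes of 7 lists (blue, number with a row in brackets), with a black bar at each median and a dashed line at the lowest value of the table, -2.71. The members lie between 3.69 and 8.21, above the 10 keratinocyte genes, and each of the other 6 lists spreads more widely than the members.

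The proteases that stefins inhibit and the other inhibitors of the superfamily spanned most of the range of the table. The 10 papain-like cathepsins summed to 3254 CPM. Ctsb, a main lysosomal cathepsin, was highest at log2 11.14, followed by Ctsl (9.16) and Ctsz (7.80), whereas Ctss, known from antigen-presenting cells, was at the lowest value. In CPM, 2 of the 10 were above Stfa1 (296 CPM), Ctsb at 2253 CPM and Ctsl at 573 CPM. Their longest protein-coding transcripts, by which the next values were divided, have 4743 and 6168 bases. Per kb of transcript, Ctsb was at 475 CPM per kb beside 480 for Stfa1, and 0 of the 10 cathepsins was above Stfa1 on that scale. Per kb of coding sequence this order turned, with Ctsb at 2216 CPM per kb and Stfa1 at 1018, and Ctsb was then the only cathepsin above Stfa1. Of the 15 other cystatin superfamily genes, 8 were under 1 CPM and 11 were below BC117090, the lowest member, per kb of transcript. Ahsg, the secreted fetuin-A of hepatocytes, was highest at log2 12.73, and it held 6781 of the 7208 CPM of the list. It was the only gene of the list above Stfa1 per kb of transcript. The kininogen Kng1 was at log2 7.32 and the secreted cystatin C gene Cst3 at 7.23, while Cst10, Cst11 and Cst13 were at the lowest value. Cstb encodes stefin B, the sister protein of stefin A that most cells contain. It was listed at log2 6.18, and Stfa1 was 3.99 times as high per kb of transcript. Of the stefins measured, a copy of the mouse stefin A cluster and not stefin B thus had the highest listed level in the fetal liver, with no spread to judge the difference by.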

How the data were processed

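PolyA RNA of 12 fetal livers, 6 per maternal diet, was sequenced. The authors used Subread 1.3.6-p1 for alignment to mm10 and edgeR to compare the diets, and the submitters' processing notes also name cutadapt 1.2.1. How reads were assigned to genes is not given in the sources used here. The authors deposited a table of 30743 rows whose average log2 CPM is a mean over all livers, the same in both columns that give it. The other 8 value columns hold the authors' fold changes, p-values and adjusted p-values for HFD against control and were not used. The planned test of diet on counts was not run, since values of single livers were not analysed here. Depth per liver is thus unknown, and no interval or SD is given.

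CPM was computed as 2 to the power of the log2 value. Lengths, exons, coding sequences and positions came from GENCODE M21 on GRCm38, to which 22880 rows were matched, 1817 of them by an older symbol, and promoters came from RefSeq tables. Coding sequences and their translations were aligned globally in pairs. Windows of 50 and 100 bases were searched in all other GENCODE transcripts. Percentiles count tied rows as midway. The members, gene lists and named motifs were chosen with earlier results of these data known. Genes named were all members, rows within 100 kb of the cluster, and from each list its 3 highest, its lowest and those at the lowest value, except that some genes of the lists are not reported here. Ppia comes from a list of 16 genes used by every cell, which was added after the values were seen, as were the per kb of transcript scale and the 100-base windows. Python 3.11.15 was used with pandas 2.3.3, numpy 2.4.6, Biopython 1.88 and matplotlib 3.10.9. The nucleotide alignment and window computations were tested on simulated sequences that differed by substitutions alone. Protein alignments and sequences with insertions or deletions were not tested.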

Additional observations from a re-analysis of the deposited data

How the results depend on the processing

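The order of the 7 members was the same in CPM, per kb of transcript, per kb of coding sequence and with the offset of rows at the lowest value subtracted. Per kb of coding sequence the levels, in CPM per kb, were 1018 for Stfa1, 682 for BC100530, 321 for Gm5483, 184 for Stfa3, 155 for Stfa2l1, 109 for Stfa2 and 44.8 for BC117090. Per kb of transcript, a scale added after seeing the data, they were 480, 321, 226, 138, 115, 71.5 and 33.3 in the same order. With the offset subtracted, Stfa1 and BC100530 kept their 3 leading digits, and the others were 93.2 CPM for Gm5483, 56.8 for Stfa3, 47.8 for Stfa2l1, 33.5 for Stfa2 and 12.7 for BC117090. Over the 19652 rows above the lowest value alone, the percentiles of the 7 members in that order were 97.7, 96.2, 91.2, 86.8, 85.3, 82.3 and 74.0. Per kb of transcript they were 99.6, 99.4, 99.0, 98.1, 97.7, 96.2 and 92.2. The summed level was 443.3 CPM without Stfa1, the highest member, and 738.5 CPM with the offset subtracted.

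The median identity of the proteins was 68.0% with gaps counted and that of the coding sequences was 84.1%. With windows of 100 bases, added after seeing the data, the share found in another gene was 5.60% for Stfa1, 22.3% for BC100530, 11.1% for Gm5483, 13.5% for BC117090 and 0% for Stfa2l1 and Stfa2, and it was 0% for Stfa3 with either window. Variants of the diet test (DESeq2 size factors, no filter on low counts and summed counts of all members) need counts of single livers and were not run. No paired analysis was possible because the result comes from no test. The depth behind each mean is not known, so no counting error or spread between livers can be given for any level.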
